A study of Bos taurus with 8 samples.

Results

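Genes of the NF-kB feedback and immediate early response, 10 in all, were examined in bovine neutrophils: NFKBIA, IL1B, LITAF, KLF6, FOSB, FOS, JUNB, DUSP1, ZFP36 and ZFP36L2. Members were taken as every non-control probe whose RefSeq accession maps to 1 of these genes, which gave 26 probes for 10 genes, of 43653 probes and 12639 gene symbols on the array. NFKBIA and IL1B each had 4 probes. KLF6, FOSB, FOS, DUSP1 and ZFP36L2 had 3 each, and LITAF, JUNB and ZFP36 had 1 each. The cells were neutrophils from jugular blood of Holstein Friesian cows around calving, hybridised to single-colour (Cy3) Agilent arrays. The C+7 group held 4 arrays of samples drawn 7 days after calving, and the C-14 group held 4 arrays of samples drawn 14 days before the calving that was expected. All cows were female, and no treatment is labelled. The series text counts 3 cows while each time has 4 arrays, and no label links an array to its cow, so arrays share animals in a way that could not be modelled. P-values therefore measure the spread between arrays and may be too small.

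In resting cells, NF-kB transcription factors are held in the cytoplasm by inhibitors such as the NFKBIA protein, and a stimulus that destroys the inhibitor lets NF-kB enter the nucleus and switch on its targets. Those targets include inflammatory cytokines such as IL1B and also NFKBIA itself, which closes a negative feedback loop. Immediate early genes such as FOS, FOSB, JUNB and KLF6 are induced within minutes without new protein synthesis, and their products, the phosphatase DUSP1 and the RNA-binding proteins of the ZFP36 family included, shape or end the response. Neutrophils, the first leukocytes to reach infected tissue, use the same circuits to make cytokines.

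On the 6 brighter arrays, 9 member probes of 8 genes could be tested, and 2 passed, both lower at C+7: LITAF and 1 ZFP36L2 probe, in a fit that called 4.98% of all probes tested in either direction and 3.23% lower at C+7. NFKBIA and KLF6 did not overlap between the times and missed the threshold. IL1B, FOSB and DUSP1 overlapped, and FOS did so only once low values were raised to the floor of the test. No probe of JUNB or ZFP36 was detected on any array.

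Arrays differed in brightness before any comparison of genes. The extraction software calls a spot well above background from its own local noise, and 2225, 2290, 2759 and 390 probes were so called on C+7 replicates 1 to 4, against 4177, 2380, 4493 and 780 on C-14 replicates 1 to 4. Replicate 4 of each time was therefore far dimmer than the rest, and the 6 arrays with over 2000 detected probes were fitted on their own beside the fit of all 8. All C+7 arrays lay on 1 slide from 1 scan and all C-14 arrays on another, so a difference between slides and one between times cannot be told apart. Of 14 neutrophil marker genes on the array, 9 were well above background on some of the brighter C+7 arrays and 7 on some of the brighter C-14 arrays. The markers ITGAM, MPO and S100A8 were among those detected on none of the 6 brighter arrays.

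On C+7 replicates 1 to 4, 8, 7, 7 and 1 of the 26 member probes were well above background, against 10, 10, 10 and 3 on C-14 replicates 1 to 4. In genes this was 7, 7, 7 and 1 at C+7 and 8, 8, 8 and 3 at C-14. The dim replicate 4 of each time detected the fewest members. Only 12 of the 26 probes were detected on at least 1 array, and 7 probes, 1 for each of NFKBIA, IL1B, LITAF, KLF6, FOSB, DUSP1 and ZFP36L2, were detected on all 6 brighter arrays. None was detected on all 8.

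**Figure D1:**
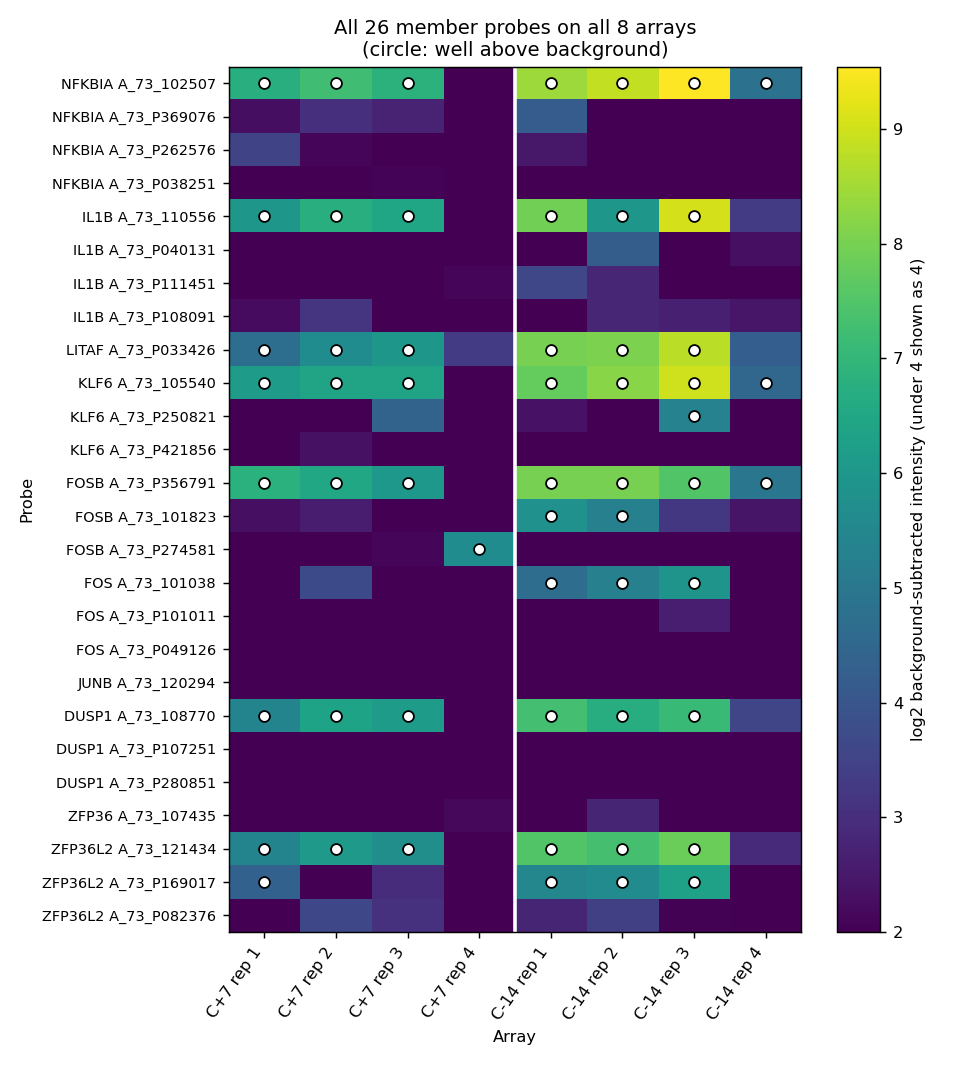
Background-subtracted intensity (log2, colour) of all 26 member probes (rows, grouped by gene) on all 8 arrays (columns, C+7 left of C-14); a circle marks a probe well above background. For 7 genes 1 probe carries the signal on all 6 brighter arrays, and 14 probes have no circle.

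The remaining 14 probes were well above background nowhere. Their background-subtracted intensities over the 8 arrays ran between -12.9 and 18.6, with a median of 0.0670. The 3 dark NFKBIA probes, A_73_P369076, A_73_P262576 and A_73_P038251, ran from -6.57 to 18.2, and the 3 dark IL1B probes, A_73_P040131, A_73_P111451 and A_73_P108091, from -3.72 to 18.6, although the other probe of each gene was bright. KLF6 probe A_73_P421856 ran from -9.41 to 5.06 and ZFP36L2 probe A_73_P082376 from -6.42 to 12.3. FOS probes A_73_P101011 and A_73_P049126 ran from -6.75 to 6.25, and DUSP1 probes A_73_P107251 and A_73_P280851 from -12.9 to 3.17. The only probes of JUNB and ZFP36 complete the 14. Probes assigned to the same transcript thus differed in whether they gave any signal, and only the detected probe carries each gene's values below.

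Levels are given as a percent of a reference level, which is the 75th percentile of the background-subtracted intensity on that array over the 1111 probes detected on all 6 brighter arrays. The reference level was 282, 374 and 308 intensity units on C+7 replicates 1 to 3 and 548, 343 and 731 on C-14 replicates 1 to 3. For the test, values below a common floor of 8.58% were raised to it, on the log2 scale. A percent compares arrays for 1 probe and not 1 probe with another.

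Among the feedback inhibitors, NFKBIA encodes the IkB-alpha protein that retains NF-kB in the cytoplasm. Its probe A_73_102507 read 106.7, 149.6, 116.0 and 3.64 intensity units on C+7 replicates 1 to 4, against 345, 459, 747 and 28.8 on C-14 replicates 1 to 4. On the 6 brighter arrays this was 37.8%, 40.0% and 37.7% of the reference level at C+7, against 63.0%, 134% and 102% at C-14. All C+7 values lay close together and below all C-14 values, whose highest was over 2-fold their lowest. The mean was 38.5% ± 1.29 at C+7 and 99.7% ± 35.5 at C-14 (SD, n = 3 each). The log2 difference, C+7 minus C-14, was -1.31 (SE 0.30, 95% interval -2.06 to -0.55), and its adjusted p in limma was 0.0814.

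The cytokine arm was represented by IL1B, which encodes the pro-inflammatory cytokine interleukin-1 beta, and by LITAF, a membrane protein of late endosomes and lysosomes first described as a factor acting on the TNF gene. IL1B probe A_73_110556 read 63.2, 107.7, 88.3 and -1.71 intensity units on the 4 C+7 arrays, against 247, 63.7, 531 and 10.0 on the 4 C-14 arrays. Scaled, it stood at 22.4%, 28.8% and 28.7% at C+7, against 45.0%, 18.6% and 72.6% at C-14. C-14 replicate 2 lay below every bright C+7 array, so the times overlapped. The difference was -0.57 (SE 0.53, interval -1.92 to 0.77, limma adjusted p = 0.601), an interval that holds both a fall and a rise.

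LITAF probe A_73_P033426 read 26.5, 50.9, 63.1 and 10.05 intensity units on the 4 C+7 arrays, against 254, 265, 431 and 19.1 on the 4 C-14 arrays. That was 9.39%, 13.6% and 20.5% of the reference level at C+7 and 46.4%, 77.4% and 59.0% at C-14. The lowest C-14 array stood over 2-fold above the highest C+7 array, and C+7 replicate 1 was near the floor. LITAF fell by 2.11 on the log2 scale (SE 0.36, interval -3.02 to -1.21, limma adjusted p = 0.0406), so that it was 4.33-fold higher at C-14. It was past the threshold with all 6 arrays, but leaving out any single array moved its adjusted p to between 0.0632 and 0.153. It was not called under normexp, a model-based background correction (-0.64), the deposited series matrix (-0.70) or the processed signal (-1.72). With C-14 replicate 4 added it was not called either (-0.04, SE 0.04). There the floor rose to log2 -2.16 and its values lay at or close to that floor, so -0.04 is not a measured difference.

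**Figure D2:**
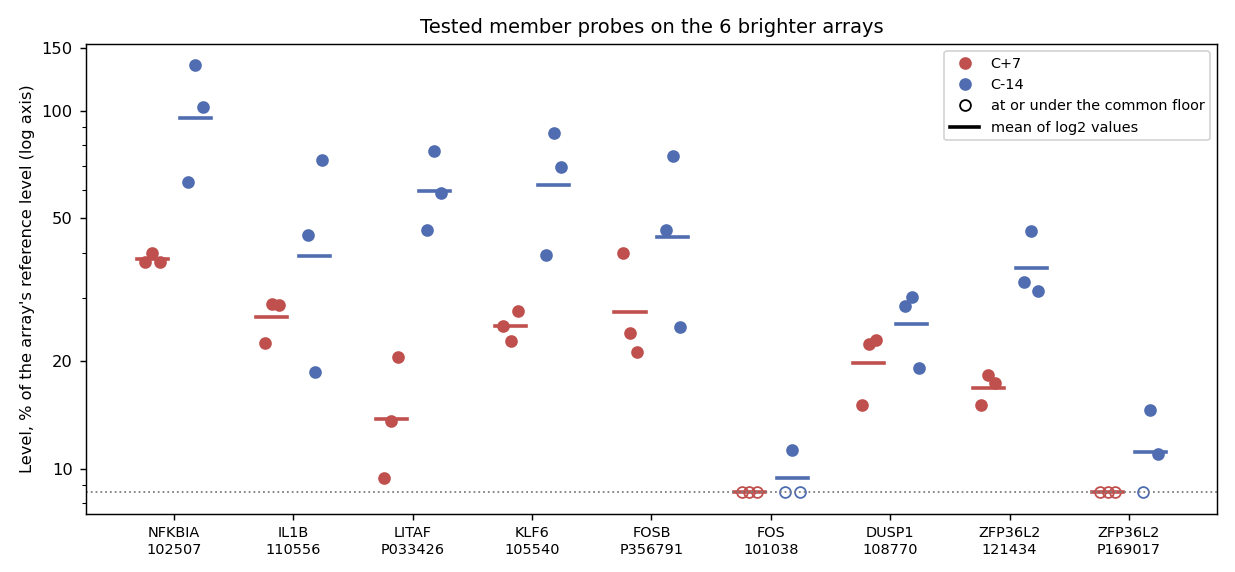
Level of the 9 tested member probes as a percent of each array's reference level (vertical log axis) on the 3 brighter C+7 arrays (red, left) and the 3 brighter C-14 arrays (blue, right); open points lie at or under the 8.58% floor and bars are means of log2 values. NFKBIA, LITAF, KLF6 and ZFP36L2 probe A_73_121434 have all C+7 points below all C-14 points.

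Among the transcription factors, KLF6, a zinc finger factor of the Krüppel-like family, gave 70.8, 84.8, 85.0 and -0.696 intensity units on the 4 C+7 arrays with probe A_73_105540, against 216, 296, 508 and 22.5 on the 4 C-14 arrays. On the scaled axis KLF6 stood at 25.1%, 22.7% and 27.6% at C+7, against 39.5%, 86.5% and 69.6% at C-14. The groups did not overlap. The difference was -1.31 (SE 0.32, interval -2.12 to -0.49, limma adjusted p = 0.0931). Leaving out 1 array gave adjusted p of 0.127 to 0.228 for NFKBIA and 0.176 to 0.266 for KLF6 in 5 of 6 cases. Both passed only without C-14 replicate 1, their lowest C-14 array, with NFKBIA at -1.60 (adjusted p = 0.0345) and KLF6 at -1.63 (adjusted p = 0.0364). A further KLF6 probe, A_73_P250821, was detected on C-14 replicate 3 alone, at 40.6 intensity units.

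FOSB and FOS encode FOS-family subunits of the AP-1 transcription factor. FOSB probe A_73_P356791 read 113, 89.4, 65.4 and 2.13 intensity units on the 4 C+7 arrays, against 255, 256, 182 and 31.2 on the 4 C-14 arrays. Its scaled level was 40.1%, 23.9% and 21.2% at C+7, against 46.5%, 74.8% and 24.9% at C-14. C-14 replicate 3 fell within the C+7 range, so the groups overlapped (difference -0.70, SE 0.49, interval -1.93 to 0.54, limma adjusted p = 0.482). FOSB probe A_73_101823 was detected on C-14 replicates 1 and 2, at 56.1 and 39.2 intensity units. It read at most 5.93 at C+7 and 9.29 on C-14 replicate 3, and it was not tested because no time had it on all its arrays. The third FOSB probe, A_73_P274581, was detected on C+7 replicate 4 alone, at 51.1 intensity units, although that array was the dimmest of the 8.

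FOS itself was at the limit of detection. Probe A_73_101038 read -4.80, 12.98, 3.82 and 1.98 intensity units on the C+7 arrays and was well above background on none of them. It read 26.1, 38.7, 59.7 and -2.60 on the C-14 arrays, and C-14 replicates 1 to 3 detected it. Before the floor, FOS was at -1.70%, 3.47% and 1.24% of the reference level at C+7 and 4.77%, 11.3% and 8.18% at C-14, so the groups did not overlap, but only C-14 replicate 2 exceeded the floor. The floored difference of -0.13 (SE 0.15, limma adjusted p = 0.651) rests on that array, and without it the difference is 0. A separate bound set the unfloored C-14 levels against the lowest detected level of each C+7 array. By that bound, which was not tested, FOS came out at least 1.03-fold lower at C+7, a value close to no difference. The bound is formed only where 1 time is undetected on every bright array. Its direction was thus favoured by that choice and is no support for a fall. JUNB, a JUN-family partner of FOS proteins in AP-1, had a single dark probe, A_73_120294, with -1.53, -6.52, -4.02 and -0.774 intensity units at C+7 and -8.24, -0.179, -5.58 and -1.92 at C-14.

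The enzymes and RNA-binding proteins that end the response include DUSP1, a phosphatase that inactivates MAP kinases, and the ZFP36 family, whose zinc fingers bind AU-rich elements and speed transcript decay. DUSP1 probe A_73_108770 read 42.6, 83.2, 70.4 and 3.28 intensity units on the 4 C+7 arrays, against 156, 103, 139.7 and 11.8 on the 4 C-14 arrays. Scaled, it stood at 15.1%, 22.2% and 22.8% at C+7, against 28.5%, 30.2% and 19.1% at C-14. The higher raw intensity at C-14 was thus largely shared by the reference level, and the scaled groups overlapped (difference -0.37, SE 0.27, interval -1.05 to 0.31, limma adjusted p = 0.503).

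ZFP36L2 probe A_73_121434 read 42.5, 68.2, 53.5 and -3.44 intensity units on the 4 C+7 arrays, against 181.5, 158, 229 and 7.66 on the 4 C-14 arrays. This was 15.1%, 18.2% and 17.4% of the reference level at C+7, against 33.1%, 46.2% and 31.4% at C-14, with no overlap. ZFP36L2 on this probe fell by 1.11 on the log2 scale (SE 0.20, interval -1.61 to -0.61, limma adjusted p = 0.0455), so that it was 2.16-fold higher at C-14. Leaving out 1 array kept the call only without C-14 replicate 2 (adjusted p = 0.0439), and the adjusted p was between 0.0737 and 0.145 without any other. The probe was not called under normexp (-0.09), the processed signal (-0.49) or the series matrix (0.63). With C-14 replicate 4 added, its difference was 0.00 with an SE of 0. The floor rose to log2 -2.16 there and held its value on every array, so that setting could show no difference. A second probe, A_73_P169017, was at the floor on all 3 bright C+7 arrays. It stood at 8.21%, 14.6% and 11.0% at C-14 (difference -0.37, SE 0.22, limma adjusted p = 0.395). The only ZFP36 probe, A_73_107435, read 3.66, 1.79, -1.12 and 4.48 intensity units at C+7 and 0.0414, 6.84, -1.59 and -1.13 at C-14, and was detected nowhere.

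Against the whole array, 2 of the 9 tested member probes were called lower at C+7 at an adjusted p under 0.05 and none higher, while 3.23% of all 2229 tested probes were called lower, 1.75% higher and 4.98% in either direction. A probe entered the test through detection on all bright arrays of either time, so these 9 probes do not stand for all 26. FOS and ZFP36L2 probe A_73_P169017 entered through C-14 alone, which fixed the direction of their differences. Of the 7 member probes detected on all 6 bright arrays, 4 had all C+7 arrays below all C-14 arrays, where 18.2% of probes so detected did. The median difference of these 7 was -1.11, beside -0.11 over all 1111 probes detected on the 6 arrays.

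**Figure D3:**
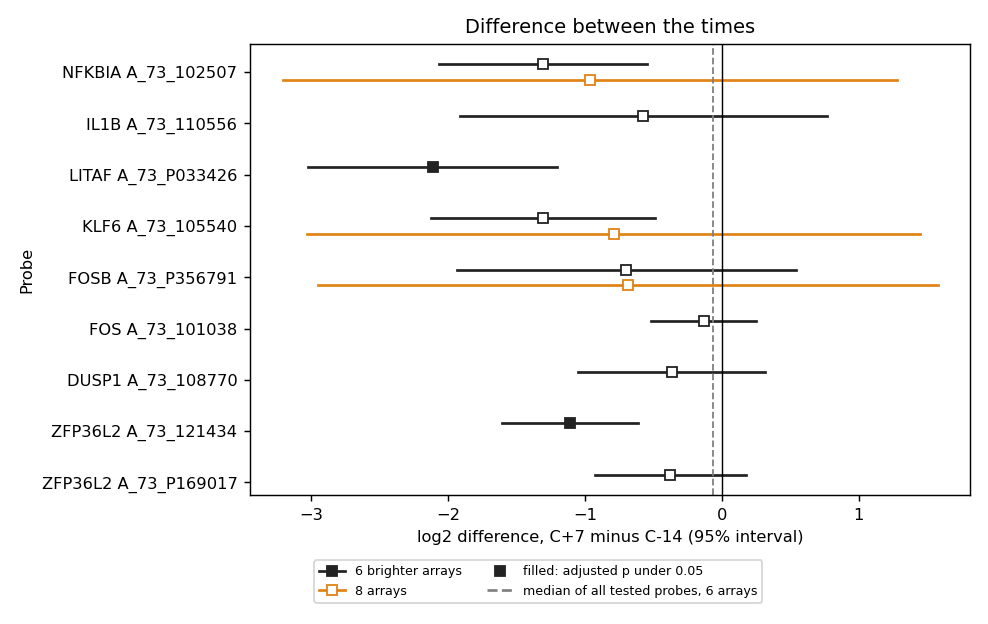
Log2 difference, C+7 minus C-14 (horizontal axis), of each tested member probe with its 95% interval, on the 6 brighter arrays (black) and, where tested, on all 8 arrays (orange); filled squares mark an adjusted p under 0.05 and the dashed line the median of all tested probes on 6 arrays (-0.07). The points of LITAF and ZFP36L2 probe A_73_121434 are filled, and those of FOS and ZFP36L2 probe A_73_P169017 have all C+7 values at the floor.

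With all 8 arrays and the processed signal, 3 member probes could be tested and none was called, in a fit that called 0% of 489 probes and had 7 probes (1.43%) at an unadjusted p under 0.05. NFKBIA was at -0.96 (SE 1.11), KLF6 at -0.79 (SE 1.11) and FOSB at -0.69 (SE 1.12), each with a limma adjusted p of 0.994. Their differences kept the sign of the 6-array fit, with standard errors over 2-fold as large. All 3 were undetected on C+7 replicate 4 and so entered this test through C-14 alone, which favours that sign. The fits also share 6 arrays, so the sign is no separate support.

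The processed signal of C-14 replicate 3 stood apart from that of the other arrays. There alone the software had applied a multiplicative surface correction, with a root mean square of 1.83, against 0 on the other 7. Among the 10 member probes detected on that array, the processed signal was between 0.179 and 1.29 times the background-subtracted signal. NFKBIA was at 246 processed against 747 subtracted units, and ZFP36L2 probe A_73_121434 at 41.0 against 229. The 14 dark probes had processed signals of 8.51 to 941 there, with a median of 70.2, and of at most 18.6 on the other 7 arrays. IL1B probe A_73_P108091, dark on every array, had a processed signal of 941 on C-14 replicate 3 from a subtracted signal of 6.36. On that array the processed signal thus placed several undetected member probes above detected ones.

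**Figure D4:**
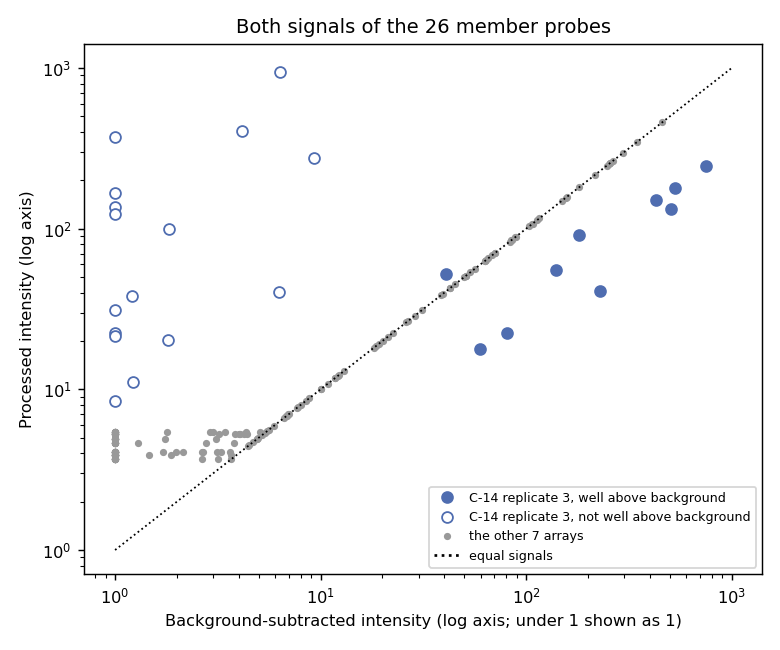
Processed against background-subtracted intensity (both log axes) of the 26 member probes on C-14 replicate 3 (blue; filled where well above background) and on the other 7 arrays (grey), with equality dotted. Grey points follow the line above the software's lowest value, while dark probes on C-14 replicate 3 reach 941 processed units.

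Markers of cell types, read on the 6 brighter arrays from each gene's brightest probe, moved with the time points. Summed over 14 neutrophil markers, with values under the floor counted at the floor, the level was 7203% to 8496% of the reference level on the bright C+7 arrays and 1295% to 2617% on the bright C-14 arrays. Of 7 tested, 3 were called higher. The 8 T cell markers summed to 153% to 175% at C+7 and 425% to 484% at C-14, with 2 of 3 tested called lower and CD2 and CD3D not detected there. The 5 monocyte markers summed to 297% to 318% at C+7 and 352% to 521% at C-14, with 1 of 2 tested called lower and CD163 and VCAN not detected there. The 6 natural killer markers summed to 51.5% on each C+7 array, with every marker at the floor, and 65.3% to 82.5% at C-14, with 1 of 2 tested called lower. That C+7 sum is made of floor values and is not a measured level. Well above background were 2 of the markers on some bright C+7 array and 2 on some bright C-14 array. GZMB, KLRK1, NCR1 and PRF1 were not detected on any of the 6 brighter arrays. The 2 eosinophil markers summed to 22.4% to 23.5% at C+7 and 111% to 144% at C-14, with 1 tested and called lower and CCR3 not detected there. The 3 B cell markers summed to 61.2% to 86.0% at C+7 and 48.5% to 121% at C-14, the 5 erythroid markers to 148% to 274% at C+7 and 57.4% to 149% at C-14, and no tested gene of either list was called. The erythroid markers ALAS2 and CA1 and both platelet markers on the array were not detected there. Markers of T cells, natural killer cells, monocytes and eosinophils thus moved in the direction of the members. The part of these cells in the members' differences was not tested, and fewer cells of a type cannot be told apart from less RNA per cell in such bulk samples.

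Few other genes of these pathways could be tested, and with 4.98% of all probes called, none called among so few is near the background. Of 42 further NF-kB pathway genes, 41 were on the array and 8 could be tested, with none called in either direction and a median difference of -0.14. SOD2, a mitochondrial superoxide dismutase and NF-kB target, was at 1.23 (SE 0.61, limma adjusted p = 0.335), with 2 C-14 arrays at the floor. BIRC3, a ubiquitin ligase acting in TNF receptor signalling, was at -1.13 on its brighter probe (SE 0.33, limma adjusted p = 0.141), with all 3 C+7 arrays at the floor. A second tested BIRC3 probe was at 0.01. MYD88, the adaptor of Toll-like and interleukin-1 receptors, was at -0.94 (adjusted p = 0.615), NFKBIB, a second IkB, at 0.87 (adjusted p = 0.595) and CHUK, an IkB kinase, at -0.36 (adjusted p = 0.601), a value carried by the 1 C-14 array above the floor.

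Of 45 further immediate early genes, 39 were on the array and 5 were tested, with none called and a median of -0.10. DUSP2, a nuclear MAP kinase phosphatase, was at -1.33 (SE 0.45, limma adjusted p = 0.188), and ID2, an inhibitor of basic helix-loop-helix factors, at -0.74 (SE 0.19, adjusted p = 0.102) with all C+7 arrays at the floor. MCL1, an anti-apoptotic protein of the BCL2 family, was at 0.35 and ETS2 at 0.04. RHOB was at -0.10, again from the only C-14 array above the floor. Of 26 transcript decay genes, 22 were on the array and 5 were tested, with none called and a median of 0.31. ZC3H12A, the endonuclease regnase-1 that cleaves cytokine transcripts, was at 1.34 (SE 0.45, limma adjusted p = 0.183) and YWHAB, a 14-3-3 protein, at -0.76 (SE 0.31, adjusted p = 0.257). MAPKAPK3 stood at 0.41, with 2 C-14 arrays at the floor, ZFP36L1 at 0.31 and the CCR4-NOT scaffold CNOT1 at -0.13. Within each of the 3 lists, values lay on both sides of 0.

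Over the 6 bright arrays, the mean scaled log2 level of the 7 common member probes was -2.25, -2.12 and -2.04 on C+7 replicates 1 to 3 and -1.25, -0.84 and -1.11 on C-14 replicates 1 to 3. Pairwise correlations between these probes, 21 in all, ran from -0.45 for IL1B with FOSB to 0.99 for NFKBIA with KLF6, with a median of 0.53. They include the difference between the times, and all points share the arrays and their scaling. Among 794 probes of other named genes, detected on all 6 arrays, the profiles most like the members' mean were those of EEF1A1 (r = 0.998), TUT7 (0.995), BOLA-DQB1 (0.994), IFI30 (0.989) and PPT1 (0.989). EEF1A1, a translation elongation factor, was at -1.75 (limma adjusted p = 0.0181), the uridylyltransferase TUT7 at -1.70 (adjusted p = 0.0386) and BOLA-DQB1, a class II antigen-presenting chain, at -1.95 (adjusted p = 0.0320). The lysosomal enzymes IFI30 and PPT1 were at -2.16 (adjusted p = 0.0320) and -2.05 (adjusted p = 0.0269). These genes were picked for matching a profile that was itself lower on every bright C+7 array. Their direction was thus fixed by the choice, and their adjusted p-values are no separate result.

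The 4 member probes that were detected on all 6 brighter arrays and did not overlap were followed through the other ways of scaling, filtering and choosing arrays. Under the deposited series matrix the LITAF probe was at -0.70, NFKBIA at 0.13, KLF6 at 0.25 and ZFP36L2 probe A_73_121434 at 0.63, in a setting where the median of all tested probes stood at 1.03. Relative to the median of each setting, the 4 lay below 0 in every setting tried on the 6-array fit. The exception was ZFP36L2, at 0.00 with C-14 replicate 4 added, where all its values lay at the raised floor. Much of this was fixed in advance. The 4 probes were chosen for not overlapping on these 6 arrays, so leaving out an array could not turn a computed difference. The brightest probe per gene, no filter, the replicate block and the filter for detection on all 6 arrays left the computed differences unchanged. Only normexp, the processed signal, the series matrix, scaling over all probes and, except for ZFP36L2, the added array could turn the computed sign.

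**Figure D5:**
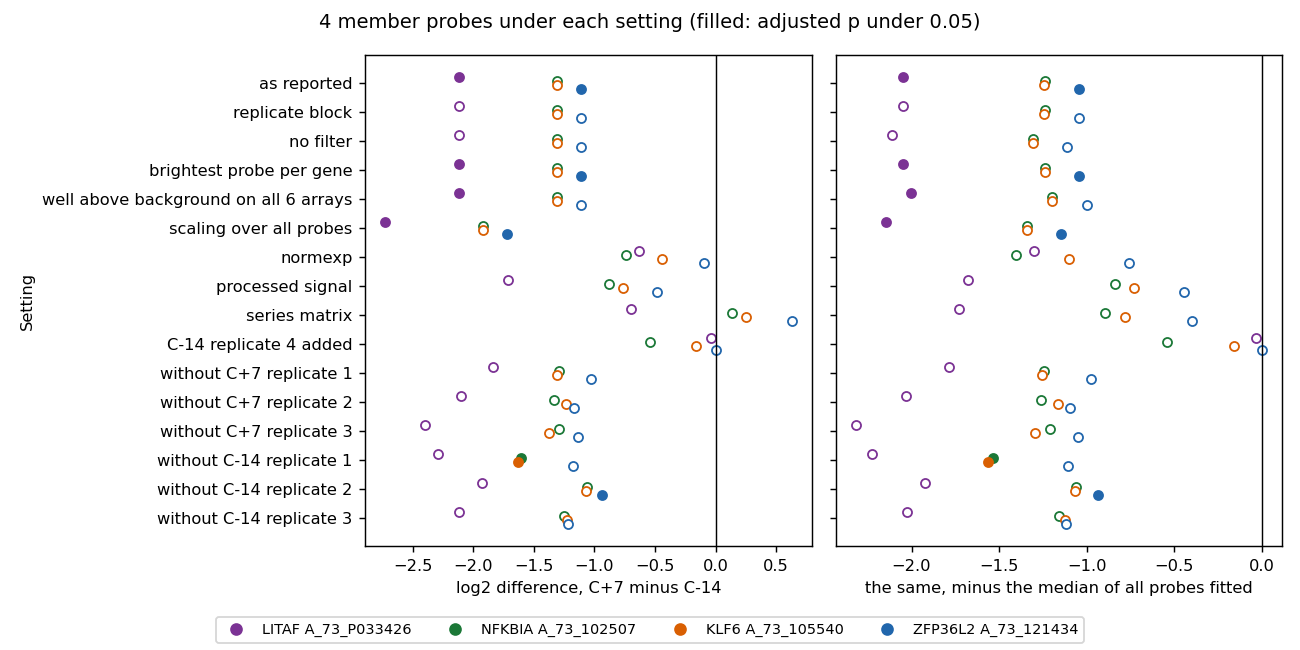
Log2 difference, C+7 minus C-14, of 4 member probes (colours) on the 6-array fit under each setting (rows), as computed (left) and after subtracting the median of all probes in that fit (right); filled points have an adjusted p under 0.05. The series matrix row puts NFKBIA, KLF6 and ZFP36L2 above 0 on the left, and all 4 probes below 0 on the right.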

How the data were processed

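The deposited scanner files hold, per the file headers, spot intensity from Agilent Feature Extraction 10.10.1.1 (protocol GE1_1010_Sep10), while the submitters' processing notes name version 9.1. The authors' deposited series matrix holds log2 values, which the values themselves show to be scaled per array and centred per probe. Its rows were matched to probes through array differences (lowest correlation 0.9998), and its column medians lay between -0.128 and 0.0289 except at -2.61 on C-14 replicate 3. Calls well above background are the software's deposited flags.

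Control spots and flagged outlier spots were left out and spots of a probe averaged, each probe kept as its own feature. Accessions were named through RefSeq genes of assembly ARS-UCD2.0, which gave symbols to 26832 probes and none to 16821. The test took each probe that every array of one time or the other called well above background. Processed log2 signal of 8 arrays, scaled by the 75th percentile over 118 probes detected on all, and background-subtracted signal of the 6 arrays with over 2000 detected probes (1111 common probes, floor at log2 -3.54) were fitted by lmFit and eBayes of limma 3.58.1 (R 4.3.3) as two-sided tests, with Benjamini-Hochberg adjustment over all probes and a threshold of 0.05. The number of arrays limits precision. Scripts were tested on simulated data. Other filters, scalings, signals and array sets were run as alternatives; normexp (offset 50) was planned on the mean spot signal and used the median.

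Members, lists and the 6-array fit were chosen with earlier results of these data known. The text names every member probe, the 5 largest differences per list and the 5 genes most like the members by correlation. Sequences and coordinates of probes were not used here.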

Additional observations from a re-analysis of the deposited data

Results flagged for a closer look

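Values of 4 arrays per time were examined for a single array apart from its group in 26 groups, and 3 stood apart, where chance gives about 1 in 20. FOSB probe A_73_P274581 had a scaled log2 processed signal of -0.44 on C+7 replicate 4 and -7.57 to -6.44 on the other C+7 arrays. Those other values are the software's lowest processed signal on each array and not measured levels. On C+7 replicate 4 the lowest processed signal scales to -4.09, so part of the gap comes from scaling. Member probes well above background numbered 1 on C+7 replicate 4, against 7 to 8 on the others. They numbered 3 on C-14 replicate 4, against 10 on each of the others. Both arrays were also the dimmest of their time over all probes, with 390 probes detected on C+7 replicate 4 and 780 on C-14 replicate 4.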

How the results depend on the processing

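The 6-array fit called 111 probes. It called 96 with the brightest probe per gene and 114 (15 higher, 99 lower at C+7) with scaling over all probes, against 39 higher and 72 lower in the reported fit. It called 69 (65 higher, 4 lower) with normexp, 53 (21 higher, 32 lower) among probes detected on all 6 arrays, 12 with the processed signal, 6 with C-14 replicate 4 added, 5 with the series matrix, 1 without a filter and 0 with the replicate block. Leaving out 1 array gave 7 to 109 (36 without C+7 replicate 1, 7 without C+7 replicate 2, 7 without C+7 replicate 3, 57 without C-14 replicate 3). The 8-array fit called 0, 16 with array weights, 1 without a filter and 0 to 3 when 1 array was left out (3 without C+7 replicate 4). The median of all probes was 0.66 under normexp, 1.03 under the series matrix and -0.58 under scaling over all probes.

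LITAF was called with the brightest probe, scaling over all probes and the stricter filter. It was not called under normexp (-0.64), the processed signal (-1.72), the series matrix (-0.70), no filter (adjusted p = 0.376) or the replicate block (adjusted p = 0.115). ZFP36L2 probe A_73_121434 was called with the first 2 of these, and was at -0.09 under normexp and -0.49 under the processed signal, with adjusted p of 0.105 under the stricter filter and 0.120 under the block. With C-14 replicate 4 added, the array set and the scaling probes changed and the floor rose to log2 -2.16. ZFP36L2 probe A_73_121434 was at 0.00 with an SE of 0 there, so its values lay at the floor on every array. LITAF was at -0.04 (SE 0.04), with its values at or close to that floor. Neither is a measured difference, and the changes were not tested one by one. Signs turned under the series matrix for NFKBIA (0.13), IL1B (0.85), KLF6 (0.25), FOSB (0.54), DUSP1 (0.99) and ZFP36L2 probe A_73_121434 (0.63), and under normexp for IL1B (0.0077), FOS (0.68), DUSP1 (0.41) and ZFP36L2 probe A_73_P169017 (0.44), each not called. Minus the median of all probes in that setting, the first 6 were between -0.89 and -0.04, and under normexp IL1B was at -0.66, DUSP1 at -0.26, ZFP36L2 probe A_73_P169017 at -0.22 and FOS at 0.02. Pathway list counts stayed at 0 with the processed signal.

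Same-numbered arrays correlated at -0.255 to 0.260 in the 6-array fit and -0.256 to 0.585 in the 8-array fit, so the numbers were not taken to pair samples, and 1 of 6 and 4 of 8 arrays correlated best with their own number.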
